A study of Homo sapiens with 7 samples.

Results

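After 4 days of palbociclib, 275 regions of the ZR-75-1 genome carried a reproducible Rb peak that lay outside every annotated promoter and that was not called in untreated cells. The regions were chosen by measured values, namely the peak calls. Overlapping peaks of the 2 palbociclib replicates were joined where both replicates had a peak, which gave 6644 regions on chromosomes 1 to 22 and X, and 5520 of these (83.1%) had no overlapping peak in the DMSO libraries and were called gained. A gained region was distal when it kept clear of a window of 2000 bp before and 500 bp after each transcription start site (TSS), taken for every transcript of every GENCODE gene, coding or non-coding. The 275 regions were 4.98% of the gained regions (95% exact binomial interval, 4.42% to 5.59%). Of the other gained regions, 4905 lay at promoters of protein-coding transcripts and 340 only at promoters of non-coding genes or transcripts. Because peak calls under palbociclib and DMSO chose the regions, the difference between the treatments is part of their definition, and no test was made of it.

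Rb, the product of the retinoblastoma gene RB1, is held off chromatin partners when cyclin D and the kinases CDK4 and CDK6 phosphorylate it, and the unphosphorylated protein joins E2F transcription factors at promoters of cell cycle genes. Rb is not known to recognise a DNA sequence itself and reaches chromatin through such partners. Most promoters of widely used genes lie in CpG islands, stretches in which the dinucleotide CpG is not depleted as it is in the rest of the genome. CpG islands also occur away from annotated promoters, and transcription factors such as the SP and KLF families, NRF1 and E2F itself recognise sequences that contain CpG or are rich in G and C.

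The data were CUT&RUN peak lists, in which an antibody directs a nuclease to release the DNA around a bound protein. ZR-75-1 is an established line of human breast cancer cells that express the oestrogen receptor. Parental cells were profiled with an Rb antibody in 2 libraries with DMSO and 2 with 500 nM palbociclib, an inhibitor of CDK4/6. RB1 KO cells, which had been sorted as single cells and so may stand for single clones, gave 1 library with each treatment, and 1 library of palbociclib-treated parental cells was made with a non-targeting IgG2a antibody. All treatments lasted 4 days.

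Outside promoters of any gene, the DMSO libraries had 44 and 27 peaks, and the palbociclib libraries had 611 and 597. On the same chromosomes the RB1 KO libraries had 3 such peaks with DMSO and 4 with palbociclib, whereas the IgG2a library had 1228, so distal peaks were 71.2% of the IgG2a list and 7.35% and 7.31% of the palbociclib Rb lists. The smallest local background in a list, which scales with sequenced depth, was 0.516 and 0.549 fragments in the palbociclib lists, beside 0.571 and 0.465 in the DMSO lists. The values of the groups overlapped. Of the 308 distal regions shared by the palbociclib replicates, 275 (89.3%) had no DMSO peak, beside 83.1% of all regions. Nothing is read from these shares, since the rule used them.

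The distal Rb regions lay mostly in CpG-rich DNA. Sequence within 100 bp of the summit is printed here for the 3 best-ranked regions in which no stretch of 31 bases recurs elsewhere in the reference, to show what a distal Rb site looked like. The sequences are the plus strand of hg38, named by the nearest protein-coding gene, and capitals mark every CpG.
DEGS2, chr14:100192974-100193174: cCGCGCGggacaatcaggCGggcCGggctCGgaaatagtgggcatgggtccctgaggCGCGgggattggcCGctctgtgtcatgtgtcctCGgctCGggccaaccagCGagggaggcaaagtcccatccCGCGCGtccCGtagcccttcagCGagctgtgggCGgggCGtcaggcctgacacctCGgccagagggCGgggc
LTBP4, chr19:40604026-40604226: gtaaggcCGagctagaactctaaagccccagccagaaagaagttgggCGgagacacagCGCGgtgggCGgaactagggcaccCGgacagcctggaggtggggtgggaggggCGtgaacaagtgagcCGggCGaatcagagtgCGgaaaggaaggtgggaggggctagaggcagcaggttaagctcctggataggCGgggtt
NFE2L3, chr7:25862494-25862694: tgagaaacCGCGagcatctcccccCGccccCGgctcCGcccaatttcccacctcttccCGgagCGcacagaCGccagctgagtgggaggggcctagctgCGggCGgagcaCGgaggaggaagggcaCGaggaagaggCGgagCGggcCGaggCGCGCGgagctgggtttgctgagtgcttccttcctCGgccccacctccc
The first lay 33429 bp upstream of DEGS2, which encodes a sphingolipid hydroxylase, and held 21 CpGs. The region near LTBP4, which encodes a latent TGF-β binding protein, held 11 CpGs and was only 2 bp from a promoter window. The third lay in intergenic sequence, 7272 bp from the TSS of a long non-coding RNA and far from the coding gene NFE2L3, and held 19 CpGs.

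The size of a peak was given by its fold enrichment and by the pileup, the number of overlapping fragments at the summit. Fold enrichment is the ratio of the pileup to local background after 1 is added to each. The region upstream of DEGS2 (chr14:100192883-100193234) had a fold enrichment of 24.5 in palbociclib replicate 1 and 31.6 in replicate 2, from pileups of 59 and 80 fragments. In MAMSTR, which encodes a coactivator of MEF2 factors, a region in a coding exon (chr19:48714058-48714629) had a fold enrichment of 24.4 and 32.9. Both regions were stronger in replicate 2. An intronic region of NCF1, which encodes a subunit of the phagocyte NADPH oxidase, had 27.7 and 23.8, and a region of its pseudogene NCF1B had 18.5 and 27.1. In the windows of these last regions, 68.4% and 100% of the stretches of 31 bases occurred more than once in the reference, so fragments from the gene and its copies cannot be told apart. The remaining regions among the 10 best ranked lay between NACC2 and UBAC1 (20.5 and 21.7), at LTBP4 (23.6 and 23.6), near NFE2L3 (21.2 and 23.6), in an intron of LRP5, a co-receptor of Wnt signalling (12.1 and 10.8), near the small RNA pseudogene RN7SKP178 (20.5 and 19.4) and in C4orf51 (16.3 and 13.6).

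Across all 275 regions the replicates gave similar values, which is partly set by the rule, since both replicates had to call a peak. Fold enrichment ranged from 2.63 to 27.7 in replicate 1, with a median of 6.16, and from 2.70 to 32.9 in replicate 2, with a median of 6.19. The median pileup was 15 fragments in each replicate, with a lowest value of 6. The log2 fold enrichments of the replicates correlated across the 275 regions with a Pearson r of 0.76 and a Spearman rho of 0.68, and the points of each axis share a library. The within-region SD between replicates was 0.30 on the log2 scale, and 5 regions differed by more than 2-fold. Summits of the replicates lay a median of 55 bp apart. Gained regions at coding promoters were stronger and wider, with a median fold enrichment of 7.33 and 7.23, a median pileup of 18 in each replicate, and a median width of 590 bp compared with 421 bp for the distal regions. Median local background was the same for both classes, at 1.45 and 1.56 fragments.

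**Figure D1:**
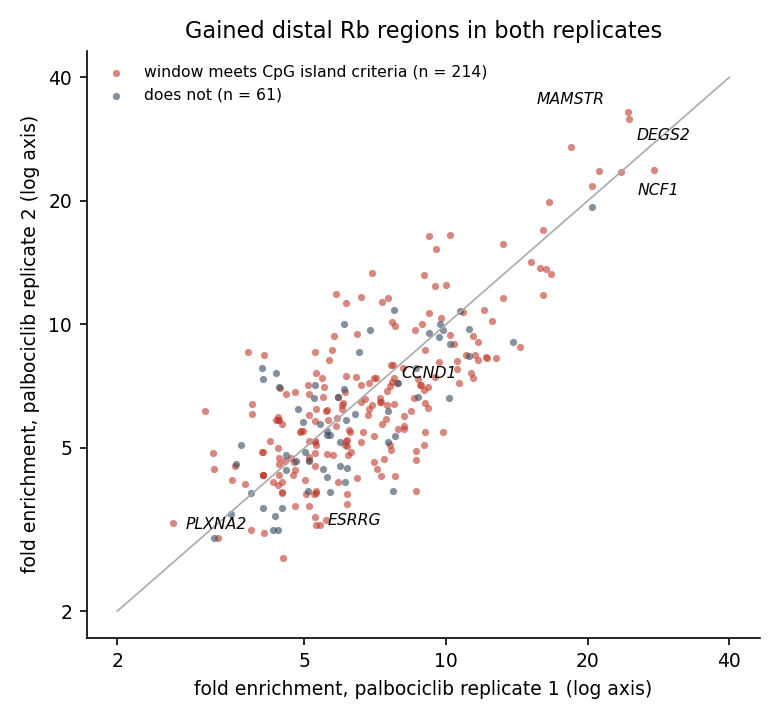
Fold enrichment of the 275 gained distal regions in palbociclib replicate 1 (x axis) and replicate 2 (y axis), both on log axes, with a grey line of equal values. Each point is a region, coloured by whether its window meets the CpG island criteria (214 regions) or not (61 regions), and both kinds are found at weak and strong enrichment.

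The distal regions were centred on CpG-rich DNA. GC content within 100 bp of the summit had a median of 70.2%, and the ratio of observed to expected CpG had a median of 0.78 (quartiles 0.64 and 0.91), with 19 CpGs per window. Gained regions at coding promoters had 71.1%, 0.89 and 22 CpGs, and gained regions at non-coding promoters had 70.2%, 0.81 and 19 CpGs. The GC content of the distal class thus matched that of the promoter classes to within 1 percentage point, whereas its CpG ratio was lower than that of coding promoters. Windows of the same length taken every 5000 bp across the genome outside promoters had a median GC content of 39.3%, a CpG ratio of 0.17 and 1 CpG. IgG2a peaks outside promoters had 58.7%, 0.29 and 4 CpGs. These are descriptions, because regions of the same libraries are not replicates.

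A window was said to meet the CpG island criteria when its GC content was at least 50% and its CpG ratio at least 0.6. This held for 214 of the 275 distal regions, or 77.8% (72.4% to 82.6%). It held for 93.4% of gained regions at coding promoters (92.7% to 94.1%), for 84.4% at non-coding promoters (80.1% to 88.1%), for 18.7% of the distal IgG2a peaks (16.5% to 20.9%) and for 1.13% of the 527729 genome windows. The distal share was above that of the IgG2a peaks and of the genome windows, and below that of coding promoters, by more than these intervals, which cover counting error only.

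The requirement that both replicates call a peak bore on this share. Among distal peaks called in replicate 1 alone and absent from DMSO, 84 of 283 (29.7%, interval 24.4% to 35.4%) met the criteria, and among those of replicate 2 alone 76 of 271 (28.0%, interval 22.8% to 33.8%). These single-library peaks were weak, with a median pileup of 7 fragments in each list. In the full distal list of each library, the share was 45.5% and 44.4% with DMSO and 54.0% and 53.6% with palbociclib. When a single palbociclib library was used as the consensus, 562 or 578 distal regions resulted, and 53.0% or 53.3% of them met the criteria.

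**Figure D2:**
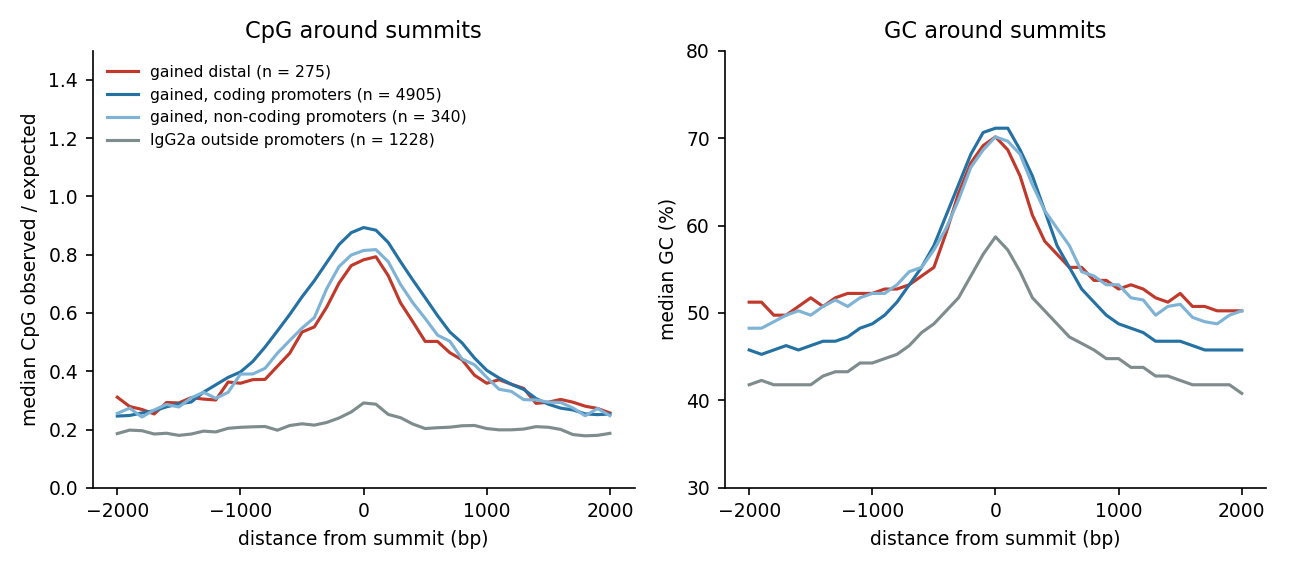
Median CpG observed over expected (left) and median GC content in percent (right) in windows at steps of 100 bp to 2000 bp on each side of the summit, for gained distal regions, gained regions at coding and at non-coding promoters, and distal IgG2a peaks. At the summit the CpG ratio is 0.78 for distal regions, 0.89 for coding promoters and 0.29 for IgG2a peaks. In the same order it is 0.31, 0.25 and 0.19 at 2000 bp towards lower coordinates. At 2000 bp towards higher coordinates it is 0.26, 0.25 and 0.19. Sides follow the plus strand of the genome and not the direction of any gene.

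CpG density fell away from the summit over a short distance. The median CpG ratio of the distal regions was 0.53 and 0.50 at 500 bp on either side and 0.36 at 1000 bp on each side. At coding promoters it was 0.66 and 0.65 at 500 bp. The GC content of the distal regions did not fall as far, and at 2000 bp it was 51.2% and 50.2%, compared with 45.8% on each side of coding promoters. Compared with coding promoters, distal regions therefore had a narrower rise in CpG and flanks richer in GC at 2000 bp. Nearer the summit their GC content was not higher. At 500 bp it was 55.2% and 56.7%, compared with 57.7% on each side of coding promoters. Gained regions at non-coding promoters were close to the distal regions in GC content at 2000 bp and in CpG ratio at 500 bp. Their GC content at 2000 bp was 48.3% and 50.2%, and their CpG ratio at 500 bp was 0.55 and 0.58. In 252 of the 275 regions (91.6%) the summit lay inside a CpG island, joined across gaps of up to 100 bp, with a median length of 1285 bp. For gained regions at coding promoters the share was 99.35% and the median length 1465 bp. No such share was computed for genome windows. In 53 distal regions (19.3%) the island extended into a promoter window, and these islands had a median length of 2226 bp. In 199 regions (72.4%, interval 66.7% to 77.6%) it reached no promoter window and had a median length of 1077 bp. Fold enrichment had medians of 7.31 and 6.16 in the replicates where the island reached a promoter and 6.14 and 6.22 where it did not. The remaining 23 regions had no island at the summit.

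The ends of the CpG range are shown by 3 sequences, again within 100 bp of the summit with every CpG in capitals. The first has the highest CpG ratio among regions with no recurring stretch of 31 bases, the second lies farthest from any TSS, and the third has the lowest CpG ratio of all 275.
TRIM62, chr1:33181020-33181220: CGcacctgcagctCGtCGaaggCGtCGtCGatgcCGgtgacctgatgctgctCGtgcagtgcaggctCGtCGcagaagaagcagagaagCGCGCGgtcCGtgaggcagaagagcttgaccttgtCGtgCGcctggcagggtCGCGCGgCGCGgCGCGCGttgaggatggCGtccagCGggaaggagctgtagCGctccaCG
ESRRG, chr1:216601026-216601226: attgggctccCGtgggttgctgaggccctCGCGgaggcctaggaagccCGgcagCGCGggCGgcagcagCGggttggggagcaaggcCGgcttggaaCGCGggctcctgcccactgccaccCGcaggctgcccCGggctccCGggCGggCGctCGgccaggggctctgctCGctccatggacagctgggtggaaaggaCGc
AHNAK, chr11:62553370-62553570: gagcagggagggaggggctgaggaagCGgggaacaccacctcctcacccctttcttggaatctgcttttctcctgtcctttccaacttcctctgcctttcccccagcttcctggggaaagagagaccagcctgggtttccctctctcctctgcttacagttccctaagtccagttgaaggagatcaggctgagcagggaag
The window in a coding exon of TRIM62, which encodes a ubiquitin ligase, had a CpG ratio of 1.25 and lay 1 bp outside a promoter window. The window in an intron of ESRRG, which encodes oestrogen-related receptor gamma, lay 114127 bp from the nearest TSS and had a ratio of 0.69. The window in an intron of AHNAK, which encodes a very large scaffold protein, had a single CpG and a ratio of 0.062. The other regions among the 5 highest ratios lay near LYSMD4 (1.55), LRCOL1 (1.39), GRIN2D (1.23) and FLNA (1.16), and those near LYSMD4, LRCOL1 and FLNA were in repeated sequence, with 100%, 84.2% and 81.9% of their stretches of 31 bases recurring. The other regions among the 5 lowest lay in introns of TEKT5 (0.14), SLC38A8 (0.16), SLC27A2 (0.18) and SECTM1 (0.19).

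Regions without the island criteria were somewhat weaker. The 61 regions that did not meet them had a median fold enrichment of 5.66 and 5.80, compared with 6.53 and 6.23 for the 214 that did, and median pileups of 13 and 14 compared with 15.5 in each replicate. Even where the criteria failed the windows were rich in GC, with a median of 62.2% and 7 CpGs.

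Distances to genes are given without a background distance for genome windows. The summit lay a median of 5065 bp from the nearest TSS of any gene, with quartiles of 2334 and 9660 bp, and a median of 10453 bp from the nearest TSS of a coding transcript. By distance from any TSS, 58 regions (21.1%) lay within 2 kb, 78 (28.4%) between 2 and 5 kb, 72 (26.2%) between 5 and 10 kb, 63 (22.9%) between 10 and 50 kb, and 4 (1.45%) farther than 50 kb. The share that met the island criteria was 82.8%, 82.1%, 68.1% and 77.8% in the bins up to 50 kb, with intervals that all overlapped, and 4 of 4 beyond. CpG-rich regions were thus found in every distance bin. Every island that reached a promoter belonged to a region within 5 kb of a TSS, 41 of them in the nearest bin and 12 in the next. Islands were searched only to 5000 bp on each side of the summit. For regions beyond 10 kb the absence of such islands was therefore set by the search.

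**Figure D3:**
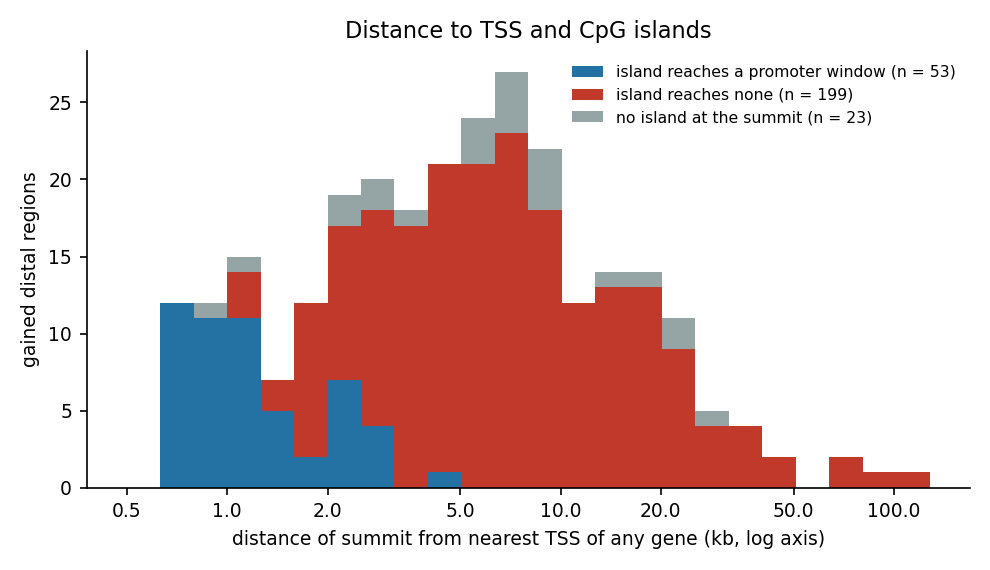
Number of gained distal regions by distance of the summit from the nearest TSS of any gene (kb, log axis), stacked by whether the summit lies in a CpG island that reaches a promoter window (53), in an island that reaches none (199) or in no island (23). Islands that reach a promoter sit at the short distances, and islands that reach none make up most regions at every distance beyond 2 kb. The search to 5000 bp on each side of the summit partly sets this split.

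Values on both sides of the limits that define the regions are given as a description. The members nearest to it were TRIM62 (1 bp away), LTBP4 (2 bp) and C4orf51 (4 bp), with fold enrichments of 8.41 and 6.16, 23.6 and 23.6, and 16.3 and 13.6 in the replicates. Just inside it were gained regions at DGCR8, with an overlap of 26 bp and fold enrichments of 5.96 and 9.75, and at FKBP5, with an overlap of 36 bp and fold enrichments of 4.59 and 6.93. The third lay between these in overlap, at 32 bp, on chromosome 19, with fold enrichments of 6.89 and 8.96. At the significance limit, the weakest members were near TEF (−log10 q of 4.72 and 1.33), MLPH (4.32 and 1.33) and ADRA1B (1.32 and 2.72). On the far side of the DMSO criterion, 33 distal regions did overlap a DMSO peak, and the weakest of those DMSO peaks, near HMGN2, had a −log10 q of 1.34. These 33 were strong under palbociclib, with median fold enrichments of 19.8 and 18.9, and 69.7% of them met the island criteria (51.3% to 84.4%).

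The distal regions were divided between genes and intergenic DNA. The summit lay in intergenic sequence in 116 regions (42.2%), in an intron of a coding gene in 98 (35.6%), in a coding exon in 21 (7.64%), in a 3′ UTR in 9 (3.27%) and in another exon of a coding gene in 5. A further 26 (9.45%) lay in non-coding genes. Regions in exons met the island criteria in 80% of cases (63.1% to 91.6%), intergenic regions in 81.9% (73.7% to 88.4%), intronic regions in 74.5% (64.7% to 82.8%) and regions of non-coding genes in 69.2% (48.2% to 85.7%). These intervals overlapped. The nearest TSS belonged to a coding gene for 177 regions (64.4%), to a long non-coding RNA for 54 (19.6%) and to a pseudogene for 25 (9.09%). The summit was downstream of that TSS in 177 regions and upstream in 98, and since the promoter window reaches farther upstream than downstream, this split is partly set by the rule.

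The 5 regions farthest from any TSS lay in introns or in intergenic DNA. In ESRRG the region at 114127 bp had a fold enrichment of 5.26 and 3.39. The region in an intron of PAX2, a developmental transcription factor gene, lay 78100 bp downstream of the nearest TSS. It had 6.22 and 5.53 and a CpG island of 4575 bp. The region in an intron of CWC27, a spliceosome-associated gene, had 9.83 and 5.46. It lay 65248 bp from the nearest TSS of any transcript and 249178 bp from the nearest coding TSS. The region 46317 bp downstream of the nearest TSS of BCORL1, a corepressor gene, had 4.08 and 4.29. The fifth, on chromosome 22 at 11973973 to 11974335, had 4.56 and 4.64, and it was also the only distal region to overlap an IgG2a peak. In its window 58.5% of stretches of 31 bases recurred in the reference.

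Chromosome 19 held the most distal regions. It had 42 of the 275 (15.3%), followed by chromosome 1 with 35 (12.7%), chromosome 17 with 20 (7.27%) and chromosome 7 with 18 (6.55%). Chromosome 19 held 7.58% of the gained regions at coding promoters, 1.71% of genome windows outside promoters and 5.55% of those genome windows that met the island criteria. Its share of the gained distal regions was therefore above each of these backgrounds. Distal regions that did overlap a DMSO peak also lay on this chromosome, near RYR1, CCNE1, LMTK3, APC2, KLF1 and ZNF557. The high share is thus not shown to be particular to the gained class. Chromosome 1 held 10.4% of gained coding promoters and 8.05% of genome windows that met the criteria. Chromosomes 4, 8, 15, 18 and 21 had 4, 4, 3, 3 and 2 regions.

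**Figure D4:**
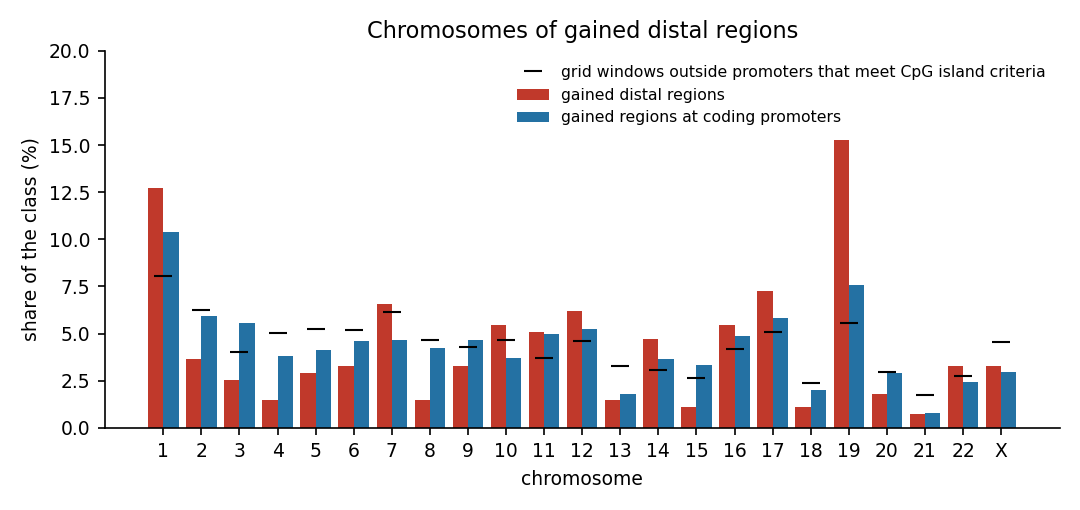
Share in percent of gained distal regions (red bars) and of gained regions at coding promoters (blue bars) on each chromosome, with black marks for genome windows outside promoters that meet the CpG island criteria. Chromosome 19 stands out with 15.3% of distal regions, compared with 7.58% of coding promoters and 5.55% of the CpG-rich genome windows.

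Of the motifs searched, those of the SP and KLF factors and of AP-2 were found in the most windows. The search covered each strand to 100 bp from the summit, and shares are given beside those of gained coding promoters and of the genome windows outside promoters. The SP and KLF motif GGGCGG was found in 192 of the 275 distal windows, or 69.8% (64.02% to 75.2%), compared with 70.8% of gained coding promoters, 2.302% of genome windows and 27.2% of the 5949 genome windows that met the island criteria. The AP-2 motif GCCNNNGGC was found in 27.3% (22.1% to 33.0%), compared with 30.5%, 2.66% and 7.38% in the same order. The NRF1 motif, a palindrome-like sequence of the nuclear respiratory factor, was found in 19 windows, 6.91% (4.21% to 10.6%), compared with 7.28%, 0.0085% and 0.336%. For these 3 motifs the value of coding promoters lay inside the interval of the distal share, and the value of the CpG-rich genome windows lay below it. Those genome windows were not matched to the distal windows in GC content. The part of base composition in any motif share was not tested. Matches can share bases. Of the 60 windows with both GGGCGG and GCCNNNGGC, 21 had overlapping matches.

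The E2F motif, the sequence of the classical partners of Rb, was written as TTTCCCGC, TTTCGCGC, TTTGCCGC or TTTGGCGC and was found in 9 windows, or 3.27% (1.51% to 6.12%), compared with 4.87% of gained coding promoters, 0.199% of genome windows and 1.03% of CpG-rich genome windows. The cell cycle homology region, TTCGAA or TTTGAA, was found in 7 windows (2.55%), compared with 4.42% of coding promoters, 23.4% of genome windows and 5.09% of CpG-rich genome windows. The YY1 motif AAGATGGC was found in 1 window (0.364%, interval 0.0092% to 2.01%) and in 2.55% of coding promoters. The ETS motif CCGGAAGT was found in 1.45% of distal windows and 3.47% of coding promoters, and the cAMP response element TGACGTCA in 1.09% and 1.20%. The NFY motif CCAAT was found in 17.5% (13.2% to 22.5%) and 24.0%, compared with 27.7% of genome windows and 9.01% of CpG-rich genome windows. The intervals of the distal shares for YY1 and NFY lay below the coding promoter values, and those for E2F, ETS and the cAMP response element included them. The interval for E2F also lay above the values of both sets of genome windows.

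The CTCF motif went the other way. With 1 mismatch allowed, it was found in 34 distal windows, or 12.4% (8.72% to 16.9%), compared with 6.89% of gained coding promoters, 8.24% of gained non-coding promoters, 6.52% of distal IgG2a peaks and 3.396% of CpG-rich genome windows. CTCF is the protein that anchors chromatin loops, and its motif is itself rich in G and C. In 29 of these windows GGGCGG was also present, with overlapping matches in 6. Among the 33 distal regions that did overlap a DMSO peak, 4 windows (12.1%) held the CTCF motif. Its share was thus not particular to the gained distal regions.

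Motifs of luminal and enhancer-associated factors were compared with coding promoters, all genome windows and CpG-rich genome windows, in that order. The oestrogen response element, with 1 mismatch allowed, was found in 2 distal windows (0.727%, interval 0.088% to 2.60%), compared with 0.285%, 0.392% and 0.521%. The FOXA motif TGTTTAC was found in 1 window (0.364%, interval 0.0092% to 2.01%), compared with 0.632%, 3.18% and 1.13%. The AP-1 motif TGACTCA or TGAGTCA was found in 4 windows (1.45%, interval 0.398% to 3.68%), compared with 1.18%, 3.01% and 1.46%. The GRHL motif AACNNGTT was found in 1.45% (0.398% to 3.68%), compared with 0.775%, 3.72% and 0.857%. The TEAD motif GGAATG was found in 24 windows, or 8.73% (5.67% to 12.7%), compared with 6.14%, 10.96% and 4.42%, so its interval lay above the CpG-rich genome windows and included the other values. The GATA motif AGATAAG was found in 0 of 275 windows, which allows a share of up to 1.09%, compared with 0.306%, 2.93% and 0.857%. A missing match says only that these letters were not within 100 bp of the summit.

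Sites of the E2F motif in 2 of the best-ranked regions that held it, the NRF1 site of the MAMSTR region, both oestrogen response elements and the single FOXA site are shown with 15 bases on each side, as the plus strand of hg38 with the match in capitals, since E2F is the classical partner of Rb and the oestrogen receptor and FOXA factors act in this cell type.
E2F match near INO80D, chr2:205885699-205885736: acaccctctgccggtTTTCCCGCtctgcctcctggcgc
E2F match near CTDSP2, chr12:57865293-57865330: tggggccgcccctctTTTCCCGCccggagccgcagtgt
NRF1 match near MAMSTR, chr19:48714465-48714504: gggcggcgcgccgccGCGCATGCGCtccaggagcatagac
ERE match near ECE1, chr1:21247362-21247404: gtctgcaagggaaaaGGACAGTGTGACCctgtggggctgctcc
ERE match near KLHL31, chr6:53651952-53651994: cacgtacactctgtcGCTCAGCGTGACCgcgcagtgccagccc
FOXA match near ZNF33B, chr10:42641054-42641090: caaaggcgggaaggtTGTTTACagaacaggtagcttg
The E2F match in the intergenic region near RN7SKP178, whose nearest coding gene was INO80D, lay in the ninth-ranked distal region, which had a fold enrichment of 20.5 and 19.4 and a CpG ratio of only 0.37. The region near CTDSP2 had 10.2 and 16.5. The regions with an oestrogen response element were weaker, at 5.59 and 5.39 in ECE1, which encodes endothelin-converting enzyme, and 6.29 and 4.90 in KLHL31. The ECE1 window had a CpG ratio of 0.29 and the KLHL31 window 0.95. The region with the FOXA match, upstream of ZNF33B, had 13.9 and 9.04. The best-ranked regions with a CTCF match lay near IER5 (9.22 and 10.7), in GLTPD2 (13.3 and 15.7) and near CTDSP2. Those with an AP-1 match lay in ZBTB7B (7.89 and 5.55), near IRF2BPL (7.48 and 6.37) and near KATNAL1 (5.30 and 6.20).

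**Figure D5:**
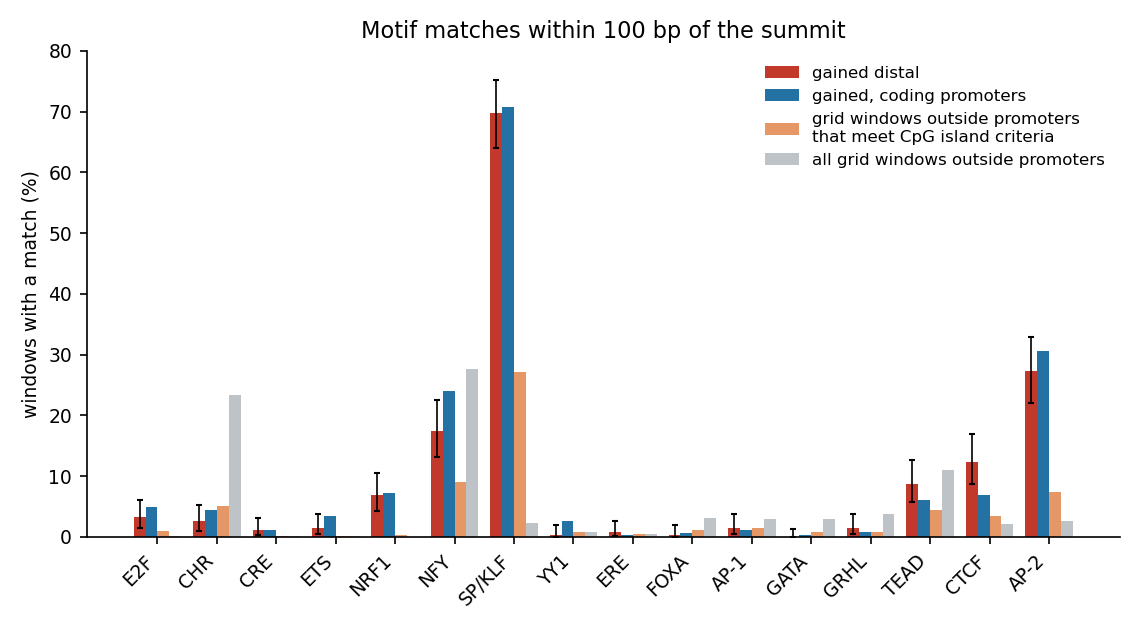
Percent of windows within 100 bp of the summit that hold each motif, for gained distal regions (red, with 95% exact binomial intervals), gained regions at coding promoters (blue), genome windows outside promoters that meet the CpG island criteria (orange) and all genome windows outside promoters (grey). The SP/KLF motif stands at 69.8% and 70.8% in the gained classes and at 2.302% in all genome windows, and CTCF at 12.4% in distal regions and 6.89% at coding promoters.

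CCND1, which encodes cyclin D1, the partner of CDK4 and CDK6, had 3 distal regions within 50 kb. Both windows upstream of it are shown within 100 bp of the summit with every CpG in capitals, because CCND1 belongs to the cell cycle and the oestrogen response lists alike.
CCND1, chr11:69636641-69636841: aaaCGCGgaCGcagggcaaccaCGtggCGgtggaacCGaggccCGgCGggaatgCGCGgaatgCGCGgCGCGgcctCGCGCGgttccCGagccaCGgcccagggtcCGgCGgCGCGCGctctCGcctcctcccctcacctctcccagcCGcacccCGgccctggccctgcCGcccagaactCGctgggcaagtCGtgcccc
CCND1, chr11:69638232-69638432: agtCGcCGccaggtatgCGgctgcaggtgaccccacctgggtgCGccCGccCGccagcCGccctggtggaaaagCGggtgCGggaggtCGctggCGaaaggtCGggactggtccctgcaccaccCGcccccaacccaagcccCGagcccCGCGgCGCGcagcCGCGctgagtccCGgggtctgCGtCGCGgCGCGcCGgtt
The first region (chr11:69636422-69637159) had its summit 4415 bp upstream of the TSS, held 30 CpGs in the window and had a fold enrichment of 7.63 and 7.94, from pileups of 41 and 45 fragments. The second (chr11:69638196-69638437) lay 2824 bp upstream, held 27 CpGs and had 6.15 and 5.24. Both summits lay in the same CpG island of 3585 bp that extended into a promoter window. The third (chr11:69654546-69655220) lay in an intron of the neighbouring gene LTO1, 13070 bp from the nearest coding TSS, with 5.58 and 6.19 and a CpG ratio of 0.63. Local background at the first CCND1 region was 4.51 and 4.79 fragments, 3.10 and 3.07 times the median of all palbociclib regions. Only the regions near PLXNA2 (5.33 and 6 times) and H3-3A on chromosome 1 (4 times in each replicate) also exceeded the median more than 3-fold in both replicates. The part of DNA copy number in these backgrounds was not tested.

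For genes of the pathways linked to Rb in these cells, the share with a distal region nearby was set beside that of all coding genes. Within 50 kb of a TSS, a distal region was present for 4 of 76 cell cycle genes (5.26%), 4 of 85 oestrogen response genes (4.71%), 1 of 23 luminal lineage factors (4.35%) and 0 of 22 genes of KDM5 and other chromatin cofactors of Rb, compared with 648 of 19970 protein-coding genes (3.24%). The counts are small, CCND1 stands on 2 of the lists, and no list was called different from all genes. Besides CCND1, the cell cycle genes were CKS1B, MYBL2 and POLE. The region near CKS1B, which encodes a subunit of cyclin-dependent kinases, lay in the 3′ UTR of its neighbour ZBTB7B and had a fold enrichment of 7.89 and 5.55. The region 9363 bp upstream of MYBL2, which encodes B-MYB, had 5.90 and 6.65. The region near POLE, which encodes a DNA polymerase catalytic subunit, had 11.7 and 8.17, but 84.2% of its stretches of 31 bases recurred.

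Besides CCND1, the oestrogen response genes were FKBP5, KRT8 and TJP3. The region 3333 bp upstream of FKBP5, a co-chaperone of steroid receptors, had a fold enrichment of 5.88 and 5.90 and a CpG ratio of 1.05. The region 23808 bp from a TSS of KRT8, the luminal keratin gene, had 4.57 and 4.41 and a CpG ratio of 0.26. The region in an intron of TJP3, which encodes a tight junction protein, had 3.67 and 5.07 and a ratio of 0.44. The luminal factor was SPDEF, an ETS factor of secretory epithelium, and its region lay in an intron of the neighbouring gene PACSIN1 with 8.97 and 5.07 and a ratio of 1.04.

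The 275 regions were nearest to 262 coding genes, and 108 of these (41.2%, interval 35.2% to 47.4%) had a palbociclib Rb region at a promoter of their own, compared with 6667 of 19626 (34.0%) for all genes with a coding transcript, a value just below that interval. A gained region lay at a promoter of 96 of the 262 (36.6%, interval 30.8% to 42.8%), compared with 28.1% of all these genes. Both values of all coding genes lay below the intervals of the nearest genes, and the difference was not tested. The gap from a distal region to the closest palbociclib Rb region at any promoter had a median of 39279 bp and quartiles of 11509.5 and 115617.5 bp, and 65 regions (23.6%) lay within 10 kb of such a region. Of the 275, 247 had no other gained distal region within 50 kb, 22 formed 11 pairs and 6 formed 2 groups of 3.

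Besides CCND1, the group of 3 lay near ZNF213 on chromosome 16, where the regions starting at 3124066, 3150094 and 3152395 had fold enrichments of 11.7 and 9.04, 4.68 and 4.71, and 4.43 and 4.71. The last 2 shared a CpG island of 2805 bp. A coding gene was nearest to more than 1 region in 11 cases, of which the following were picked after their values were seen. For TTLL10, both regions lay closer to the hairpin gene MIR200B, whose microRNA is known for its role in epithelial identity. These regions had 6.52 and 8.57, and 9.65 and 8.08. In and around BCOR, a corepressor gene, regions had 12.2 and 8.33, and 6.597 and 7.101, with CpG ratios of 1.07 and 1.10. Near SP8, which encodes a zinc-finger factor of the SP family, they had 8.15 and 5.995, and 6.14 and 5.06.

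Few peaks of the control lists overlapped the distal regions. A peak of the IgG2a library overlapped 1 of 275 (0.364%, interval 0.0092% to 2.01%), compared with 66 of 4905 gained regions at coding promoters (1.35%) and 4 of 340 at non-coding promoters (1.18%). According to the study's methods the Rb peaks were called against matched IgG controls. That step by itself lowers overlap with an IgG list, so nothing about specificity is read from these shares. Peaks of the RB1 KO libraries overlapped 0 of 275, which allows a share of up to 1.09%, but these lists held only 4 and 5 peaks on these chromosomes, so few overlaps were possible. The smallest local background was 1.23 fragments in the RB1 KO list with DMSO and 0.446 in that with palbociclib. Each control condition had a single library, so no spread between replicates can be given for it. Which control was used to call the IgG2a list is not given in the sources used here.

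Absence from DMSO rested on the thresholds of those lists. The smallest −log10 p that was called was 5.23 and 5.33 in the DMSO libraries, whereas members had values down to 4.16 and 4.19 under palbociclib. At the median background of the distal regions a DMSO peak needed a pileup of 9 or 10 fragments, compared with the median of 15 seen with palbociclib. In 32 regions (11.6%) at least 1 palbociclib value was under the higher DMSO limit, so a peak of that size would not have been listed with DMSO. Repeated sequence was a further limit for 20 regions (7.27%, interval 4.50% to 11.0%), in which over 50% of the stretches of 31 bases recurred, compared with 4.26% of coding promoter regions. In 227 regions (82.5%) no such stretch recurred.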

How the data were processed

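Peak lists of 7 Rb or IgG2a CUT&RUN libraries were analysed. According to the study's methods, reads were aligned to hg38 with Bowtie2 2.3.4.1, and the authors called peaks in each library separately, on fragments of read pairs, with MACS2 2.2.7.1 against an IgG control at a q-value limit of 0.05. For the IgG2a list itself the control is not given in the sources used here. The deposited fold enrichment is the authors' ratio of fragments to local background at the summit, with the same small count added to both. The deposited −log10 p and −log10 q are the authors' MACS2 values. Read totals are not part of the lists, so depth was judged from the pileup and background that the fold and p-value of a peak together fix, and the −log10 p computed back from them differed from the listed value by at most 0.00058 on the chromosomes used.

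Peaks were taken as overlapping from 1 bp. The members and the lists of genes and motifs were chosen with earlier results of these data known. TSSs were those of GENCODE 44 on GRCh38, and chromosome names and lengths matched the peak coordinates. Sequence was read from hg38 within 100 bp of the mean of the replicate summits. A CpG island was the joined set of such windows that met both criteria, with gaps of up to 100 bp, searched to 5000 bp on each side. Regions named in the text were the 10 best by mean rank of −log10 q, the 5 farthest from a TSS, the 5 highest and the 5 lowest in CpG ratio, the 3 best ranked with each of 5 motifs (E2F, ERE, FOXA, AP-1 and CTCF), all within 50 kb of a listed gene, those in control lists, groups of 3 or more within 50 kb, and those nearest the limits. A region that this rule names for E2F is not reported here. Of 87 oestrogen response symbols, 85 were found in the annotation. Shares carry 95% exact (Clopper-Pearson) intervals, and the limit set by a count of 0 is 3 counts of the total. Both cover counting error only. Regions are not replicates and no test was made across them. The alternatives concerned the libraries used, thresholds, overlap, promoter definition and window length. Functions were tested on simulated data. Python 3.11.15, pandas 2.3.3, numpy 2.4.6, scipy 1.17.1 and matplotlib 3.10.9 were used.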

Additional observations from a re-analysis of the deposited data

How the results depend on the processing

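The list depends on the rule more than its CpG content does. The number of distal regions was 172 at −log10 q of at least 5, 181 at a fold enrichment of at least 5, 134 with a promoter window of 5000 bp to each side, 615 with TSSs of protein-coding transcripts only and 982 with a single TSS per gene. Leaving out 1 parental library at a time gave 282 to 578 regions, a median CpG ratio of 0.64 to 0.78 and a share that met the island criteria of 53.0% to 78.0%. The low ends came from leaving out a palbociclib library (replicate 1, 562 regions, 0.66 and 53.0%; replicate 2, 578 regions, 0.64 and 53.3%), where a single list stands for the consensus. The island share was 84.3% at −log10 q of at least 5, 72.4% with the wider promoter window and 86.6% with a single TSS per gene, where the median CpG ratio was 0.86. In the other 30 comparisons of these 3 measures the value moved by less than its counting interval or, for the number, by less than 1.5 times.

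The alternatives chosen after seeing the data were among these. A common −log10 p limit of 5.33 in the 4 parental lists left 244 regions, of which 80.3% met the criteria. Leaving out repeated windows left 255 (77.6%), and leaving out islands that reach a promoter left 222 (74.8%). Motif shares moved with window length, E2F from 2.18% within 50 bp of the summit to 10.5% within 200 bp and CTCF from 5.45% to 25.8%. Counting coding genes alone placed 51.6% of regions outside genes in place of 42.2%, and 40% within 5 kb of a TSS in place of 49.5%. No paired analysis was possible because the results come from no test. With 2 libraries per parental group and 1 per control, spread between cultures is poorly known, and the lists hold no signal for regions that were not called.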
